A study of Schmidtea mediterranea with 48 samples.

Results

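Planarian heads differ from tails in many transcripts, and the contigs described here are the 150 that stood highest in heads over tails when *nr4A* was left intact. They were chosen in the control libraries alone, out of 26401 contigs, as those with the largest mean log2(CPM + 0.5) over 12 control heads minus the mean over 12 control tails, where CPM is a contig's count per 1000000 counts on contigs in its library. A mean of at least 5 CPM in control heads was required, which 12628 contigs met, and 5 contigs were left out by number. Contigs are assembled transcripts of the dd_Smed_v4 transcriptome of *Schmidtea mediterranea*, so no genome position applies, and CPM does not correct for length, so levels are compared between libraries and not between contigs.

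The planarian head holds the cephalic ganglia, the eyes, sensory structures of the head margin and the anterior pole, a small cluster of muscle cells at the head tip that organizes pattern. Planarian muscle expresses position control genes, many of them members of the Wnt and FGFRL families, which tell tissue where along the body it lies, and Wnt inhibitors are known for their expression at the anterior end. *nr4A* encodes an orphan nuclear receptor, a transcription factor expressed in muscle.

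Asexual animals of the clonal strain CIW4 were fed double-stranded RNA. It matched *nr4A* or, for the control animals, the *C. elegans* gene *unc-22*. Pieces were taken at weeks 2, 3, 4 and 5 of RNAi after the animals had been starved: heads were cut off just behind the eyes, and tails well behind the pharynx. Each of the 48 libraries pooled 6 animals, and there were 3 biological replicates for each tissue, week and RNAi group. The pieces hold many cell types, so that fewer cells of a type and less RNA per cell cannot be told apart.

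Reads counted on contigs numbered 13800452 to 27490960 in a head library and 13395084 to 42917781 in a tail library. The contig of *nr4A* itself, dd_Smed_v4_12229, was at 24.8 to 28.8 CPM in control heads and 12.03 to 20.8 CPM in *nr4A(RNAi)* heads, and at 18.5 to 25.9 and 10.6 to 18.2 CPM in the tails. In both tissues and all 4 weeks, the 3 *nr4A(RNAi)* libraries lay below the 3 controls, although reads from fed double-stranded RNA would also count on this contig. There were 4 *nr4A(RNAi)* heads that stood apart from the rest: in replicate 2 of week 2, replicate 2 of week 4 and replicates 1 and 2 of week 5, between 4.19% and 9.97% of the contigs at or above 5 CPM lay more than 1 on the log2 scale from the controls of their week, against at most 0.317% in any other head. In the tail, *nr4A(RNAi)* replicate 1 of week 2 (8.91%) and control replicate 1 of week 3 (1.24%) stood apart by the same measure. The *nr4A* contig was at 17.1, 14.9, 12.03 and 12.5 CPM in the 4 heads, in the order given, against 17.3 to 20.8 CPM in the other 8 *nr4A(RNAi)* heads. The *nr4A(RNAi)* tail that stood apart had the lowest level among those tails, 10.6 CPM. Leaving these libraries out thus also leaves out those with the least of this contig.

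In the control libraries that chose them, the 150 contigs had head-minus-tail differences of 2.38 to 9.32, with a median of 3.16, and these values are a description of the choice and were not tested. Their mean level in control heads ran from 5.01 to 532 CPM with a median of 20.03, and in control tails from 0 to 56.8 CPM with a median of 1.4. For 63 of them the control tails had less than 1 CPM on average, and for dd_Smed_v4_100370 and dd_Smed_v4_78494 no read was counted in any of the 12 control tails, which allows up to 0.0112 CPM over these libraries (3 counts; counting error only). At the edge of the choice, dd_Smed_v4_3944 and dd_Smed_v4_18184 came last inside with 2.38 each, and dd_Smed_v4_13007 and dd_Smed_v4_11513 stood just outside with 2.37 each. Of the 5 contigs left out, 4 would have ranked 6, 12, 18 and 45, among them dd_Smed_v4_11285 (*ndk*, nou-darake, a gene known to confine brain tissue to the head), and the fifth, dd_Smed_v4_23249 (*foxD*), had 2.84 CPM and would not have met the minimum. The *ndk* contig had 233 to 287 CPM in control heads and 1.98 to 4.18 CPM in control tails, high in the tissue labelled head.

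Head and tail remained apart after *nr4A* RNAi. In the *nr4A(RNAi)* libraries, which had no part in the choice, the same difference had a median of 3.27 and ran from 1.88 to 9.60, and 121 of the 150 contigs had a larger difference there than in controls. Of the 150, 147 had all 12 *nr4A(RNAi)* heads above all 12 *nr4A(RNAi)* tails, the exceptions being dd_Smed_v4_385, dd_Smed_v4_27650 and dd_Smed_v4_1312. In the controls, which chose the contigs, 149 did so, with dd_Smed_v4_385 the exception. The share of all contigs with such a separation was not counted. Between *nr4A(RNAi)* heads and tails, edgeR's quasi-likelihood test with Benjamini-Hochberg adjustment called 150 of 150 contigs higher in the head, against 33.4% of all contigs tested (57.3% in either direction). The 150 were chosen for a large difference between the same 2 tissues, so this count was largely set by the choice. It shows only that the difference was kept. Tissue and counting table cannot be told apart in this comparison, nor in the control difference that chose the contigs.

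The comparison of *nr4A(RNAi)* with control heads asked whether transcripts of the head changed before anatomy did. As a group the head-enriched contigs were not lost from *nr4A(RNAi)* heads but were slightly higher. Their summed level was 5868 to 6273 CPM in the 3 control heads and 6165 to 6451 CPM in the 3 *nr4A(RNAi)* heads at week 2, where the groups overlapped. It was 6050 to 6289 and 6671 to 6819 CPM at week 3, and 5956 to 6360 and 6808 to 7316 CPM at week 4. At week 5 it was 5603 to 5800 CPM in controls and 6905 to 7465 CPM in *nr4A(RNAi)* heads. From week 3 on, every *nr4A(RNAi)* head lay above every control head of its week in this sum. The mean of this sum was 6198 CPM at week 4 and 5720 CPM at week 5 in the controls. In the *nr4A(RNAi)* heads it was 7146 and 7191 CPM, so the wider distance at week 5 went with lower controls. Where contigs are compared with controls below, rose and fell mean against the controls of the same week. The control heads also chose the contigs, so the comparison shares them with the rule.

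**Figure D1:**
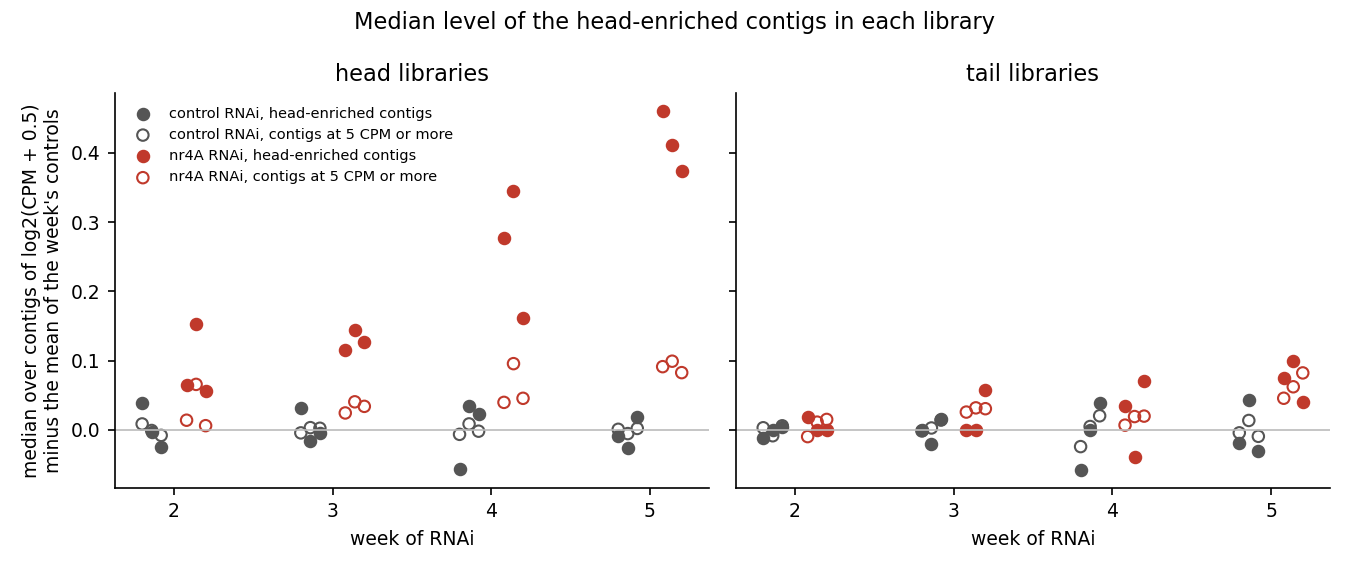
Each point is 1 library, with the week of RNAi on the x axis and, on the y axis, the median over contigs of log2(CPM + 0.5) minus the mean of the controls of that tissue and week; filled points are the 150 head-enriched contigs and open points the 12628 contigs at 5 CPM or more. In the heads, the filled *nr4A(RNAi)* points lie at 0.06 to 0.15 at week 2 and at 0.37 to 0.46 at week 5, while the open points reach at most 0.10.

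Library by library, the median contig of the group was 0.07, 0.15 and 0.06 above the week's controls (log2 scale) in the *nr4A(RNAi)* heads of week 2. At week 3 it was 0.12, 0.14 and 0.13 above them, and at week 4 it was 0.28, 0.35 and 0.16. At week 5 it was 0.46, 0.41 and 0.37. Single control heads lay between -0.06 and 0.04 of their week's mean, so that each of the 12 *nr4A(RNAi)* heads was above each control in the median of the group. Over all contigs at 5 CPM or more, the same medians of the *nr4A(RNAi)* heads were 0.01 to 0.10.

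The fitted log2 fold changes gave the same picture. The median over the 150 contigs was 0.08 at week 2, 0.10 at week 3, 0.21 at week 4 and 0.39 at week 5, a median fold of 1.31 at week 5. Over all contigs tested in the same fits the medians were -0.00, 0.01, 0.01 and 0.02. The number of the 150 with a positive value was 107, 123, 134 and 125 in the 4 weeks, against 49.9%, 53.2%, 51.6% and 52.1% of all contigs tested. When the contigs were chosen on the controls of the other 3 weeks alone, the medians were 0.08, 0.10, 0.21 and 0.38.

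**Figure D2:**
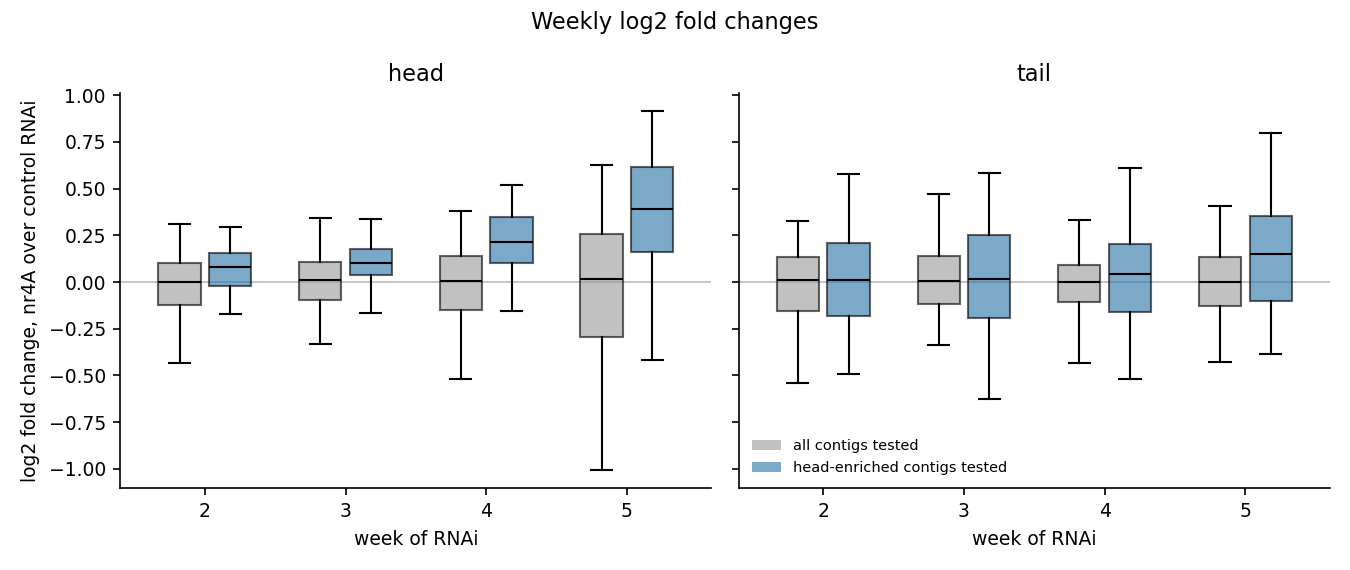
Box plots of the fitted log2 fold change of *nr4A(RNAi)* over control by week of RNAi, in the head and in the tail, for all contigs tested (grey) and for the head-enriched contigs tested (blue); lines mark medians, boxes the quartiles and whiskers the percentiles 5 and 95. In the head the blue median is 0.08 at week 2 and 0.39 at week 5, and in the tail 0.01 and 0.15.

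Counted contig by contig, all 3 *nr4A(RNAi)* heads lay above all 3 controls for 24 of the 150 at week 2 (16%, against 6.7% of all contigs tested), for 61 at week 3 (40.7%, against 16.7%), for 70 at week 4 (46.7%, against 14.7%) and for 103 at week 5 (68.7%, against 20.8%). All 3 lay below all 3 controls for 3, 7, 4 and 8 contigs (2%, 4.67%, 2.67% and 5.33%, against 4.56%, 8.55%, 5.61% and 6.01% of all contigs tested). There were 9 contigs above all controls of their week in all 4 weeks and 2, dd_Smed_v4_8340 and dd_Smed_v4_12254, below them in all 4 weeks. The share of all contigs that did so in all 4 weeks was not counted.

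Within single weeks, few of these differences passed the test. At week 2, edgeR's quasi-likelihood test with Benjamini-Hochberg adjustment called 0 of the 150 and 0% of all contigs tested. At an unadjusted p below 0.05, 10 contigs of the group were higher and 2 lower, against 253 and 273 of 18526 contigs tested. DESeq2 called 0 of the group and 21 of all contigs. At week 3 edgeR's test called 13 higher and 6 lower contigs of the group. Of all contigs tested, 1.6% were called higher and 3.65% lower (5.25% in either direction). At weeks 4 and 5 it called 1 contig each, dd_Smed_v4_8340, which was lower, against 0.049% and 0.0111% of all contigs tested called in either direction. None was called higher in these 2 weeks by edgeR. At an unadjusted p below 0.05, 48 and 96 of the group were higher, against 935 of 18374 and 2059 of 18014 contigs tested. DESeq2 called 7 and 51 of the group, 4 and 46 of them higher, and 148 and 806 of all contigs.

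The spread between libraries differed between the weeks, with a common biological coefficient of variation of 12.6%, 4.73%, 14.9% and 27.5% in the head at weeks 2 to 5. The weekly counts rested on single libraries. Without *nr4A(RNAi)* replicate 3, the test at week 5 called 104 higher and 17 lower contigs of the group, but also 11191 contigs in all, and without any other library of that week it called 0. The count at week 4 was 17 (610 of all contigs) without *nr4A(RNAi)* replicate 2 and 0 without any other library. The count at week 2 was 5 (64 of all contigs) without *nr4A(RNAi)* replicate 2. At week 3, where the count of 19 became 12 without control replicate 2 or 3, no library stood apart. Of all contigs, 611 and 561 were called without these controls, against 964. With all 24 head libraries in one fit, which share 1 spread, the counts were 3 at week 3, 8 at week 4 and 87 (82 higher, 5 lower) at week 5. Of all contigs, 48, 218 and 2546 were called in that fit.

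With the 4 weeks in 1 fit, more of the contigs were set apart from the spread. For the mean of the 4 weekly differences, fitted over all 24 head libraries, edgeR's test with Benjamini-Hochberg adjustment called 83 of the 150 higher and 7 lower, against 7.83% higher and 5.22% lower of all 19606 contigs tested. Of the 12628 contigs at 5 CPM or more, 10.05% were called higher. The median of the 150 was 0.20 with quartiles of 0.08 and 0.32, and that of all contigs tested was -0.01. Of the 90 contigs called, 84 had the same sign in all 4 weeks, 77 of them higher and 7 lower. The same share was not counted for the other contigs called.

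The count over the 4 weeks was carried in part by week 5. Weeks 2 to 4 alone gave 20 higher and 5 lower contigs with a median of 0.13, while 660 of all contigs were called. Leaving out the libraries that stood apart gave 80 higher and 14 lower contigs with a median of 0.14, and 71 of the 90 contigs were called again, while 4490 of all contigs were called, against 2560 with all libraries.

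**Figure D3:**
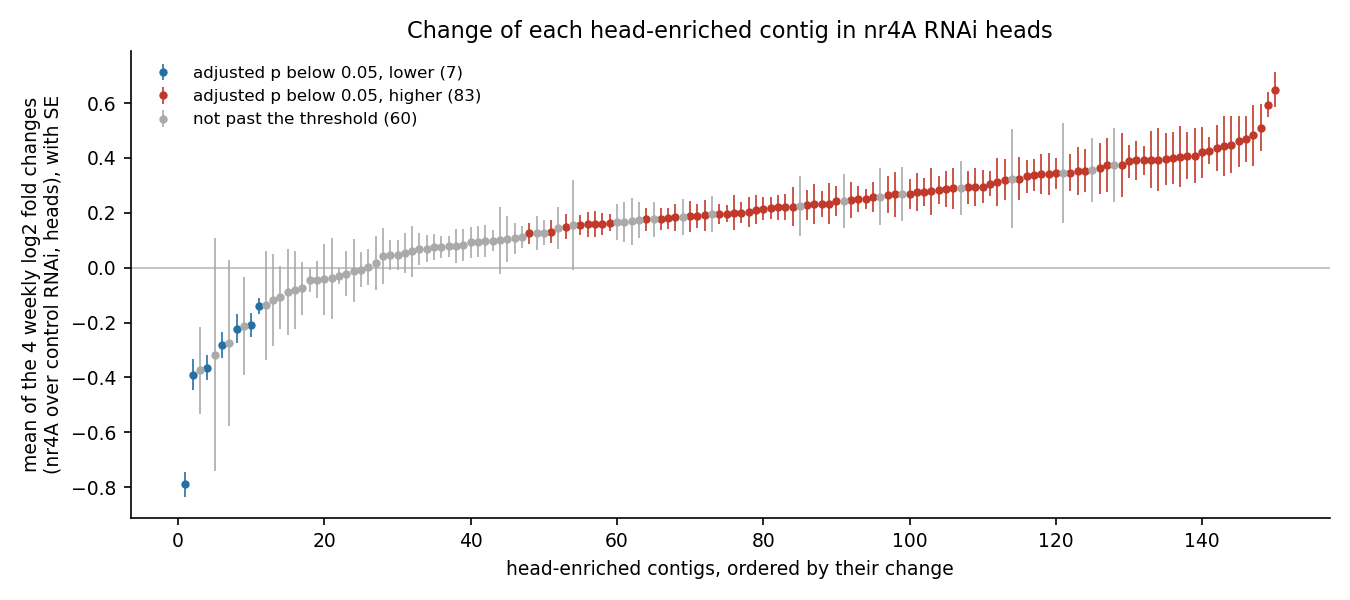
The 150 head-enriched contigs in order of the mean of their 4 weekly log2 fold changes in the head (y axis, with standard error); red and blue points passed an adjusted p of 0.05 in edgeR's test (83 higher, 7 lower) and 60 grey points did not. Values run from -0.79 for dd_Smed_v4_8340 to 0.65 for the *PGD* contig.

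A change in time was tested by taking the fitted value of week 2 from that of week 5, with all 24 head libraries in the fit. It was positive in 123 of the 150, against 45.9% of all contigs tested, and had a median of 0.28, against -0.03. Tested contig by contig, this change in time passed for 1 of the 150, dd_Smed_v4_8340, which was lower (0.27% of all contigs passed in either direction, 0.0459% of them higher and 0.224% lower). Another 61 higher and 4 lower contigs of the group had an unadjusted p below 0.05. Of all 19606 contigs tested, 969 higher and 996 lower did so. DESeq2 called 8 higher and 4 lower of the group, and 280 of all contigs. The count of the group in edgeR's test became 67 without *nr4A(RNAi)* replicate 3 of week 5, where the count over all contigs went from 53 to 5413. The group's count was 0 without control replicate 1 or 2 or *nr4A(RNAi)* replicate 3 of week 2.

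The rise was found at all levels of expression. Of the 50 contigs with the lowest level in control heads 29 were called higher and 0 lower over the 4 weeks by edgeR's test, with 14.5 CPM as the highest level among them and a median log2 fold change of 0.26. In the middle 50 contigs 30 were higher and 3 lower (median 0.20), and in the top 50 the numbers were 24 and 4 (median 0.16). Across the 150 contigs, the change and the log2 level had a Pearson correlation of -0.23, and the change and the head-minus-tail difference one of 0.01. Contigs are not independent replicates, and both correlations share the control heads on their 2 axes.

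Supplementary file 1 of the study gives a best BLAST match for 9 of the 150 contigs, and the other 141 are known here by number alone. No sequence of the contigs was used here. The 9 fall into 3 groups: Wnt signalling, transcription factors of the zinc finger and homeobox families, and 2 kinds of metabolic enzyme. All 9 are listed there because they were enriched at the anterior pole in other libraries of the study. Where related contigs such as the frizzled, zic or asparagine synthetase pairs share sequence, reads could have been split between them, which was not examined.

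The Wnt group was higher. Secreted frizzled-related proteins bind Wnt ligands outside the cell, and the contig of *sfrp1*, dd_Smed_v4_13985, is one of 3 contigs for which all 12 *nr4A(RNAi)* heads lay above all 12 control heads. At week 2 the controls had 99.9, 104 and 80.7 CPM and the *nr4A(RNAi)* heads 126, 110.8 and 105 CPM. At week 5 they had 87.0, 83.4 and 96.2 CPM and 147, 121 and 129 CPM. The *nr4A(RNAi)* values are all above the controls in both weeks, and the distance is wider at week 5. Over the 4 weeks the log2 fold change was 0.39 (SE 0.05, adjusted p = 6.56e-05 in edgeR's test, n = 3 per week and group), a fold of 1.31. At week 3, *sfrp1* passed on its own (0.34, adjusted p = 0.000129), but not with all 24 head libraries in one fit (adjusted p = 0.419).

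Frizzled proteins are the cell surface receptors of Wnts, and both frizzled contigs of the group were higher than in controls. For *fzd-5/8-3*, dd_Smed_v4_16571, the control heads of week 3 had 83.1, 82.1 and 86.2 CPM and the *nr4A(RNAi)* heads 119, 124 and 118 CPM. At week 5 the values were 71.8, 71.9 and 81.0 CPM and 98.9, 102 and 136 CPM, so that the groups were apart in both weeks, and they overlapped only at week 2. Its weekly log2 fold changes were 0.20, 0.49, 0.50 and 0.55 with a mean of 0.43 (SE 0.05, adjusted p = 8.82e-06 in edgeR's test). The other, *fzd-5/8-2*, dd_Smed_v4_17168, had 7.70, 7.38 and 7.90 CPM in the controls and 10.4, 10.9 and 12.02 CPM in the *nr4A(RNAi)* heads of week 3. At week 2, 1 control and the highest *nr4A(RNAi)* head both had 10.8 CPM. The mean log2 fold change of *fzd-5/8-2* was 0.34 (SE 0.06, adjusted p = 0.000377 in edgeR's test). All 3 contigs of the Wnt group kept their calls over the 4 weeks under every alternative run.

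**Figure D4:**
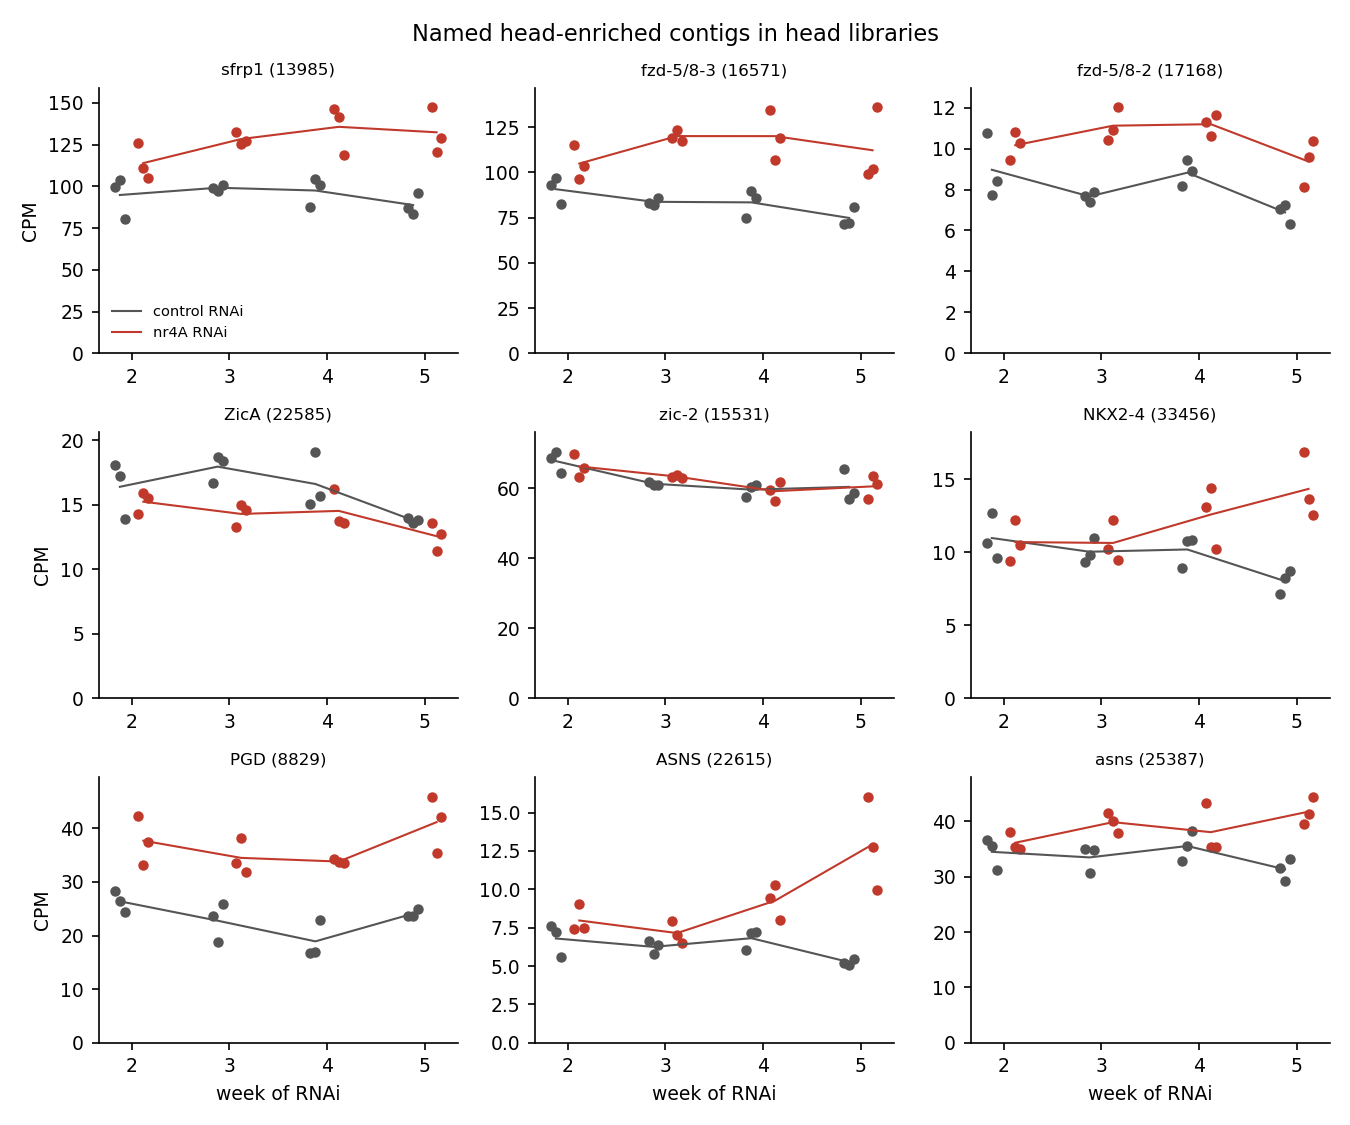
CPM (y axis, from 0) in each head library by week of RNAi for the 9 contigs with a best BLAST name; points are libraries, lines join the means of 3 and numbers in brackets are contig numbers. *nr4A(RNAi)* points lie above the controls in all weeks for *sfrp1* and *PGD*, overlap them at weeks 2, 4 and 5 for *zic-2*, and leave the controls late for *ASNS* and *NKX2-4*.

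The transcription factors did not move together. Zic proteins are zinc finger transcription factors, and planarian *zic* genes are known from the formation of the anterior pole. The contig named ZicA, dd_Smed_v4_22585, had 16.7, 18.7 and 18.4 CPM in the controls and 13.3, 14.9 and 14.6 CPM in the *nr4A(RNAi)* heads of week 3. The groups did not overlap in that week, but did at weeks 2 and 4. It fell by 0.36 on the log2 scale at week 3 (adjusted p = 0.0128) and by 0.22 over the 4 weeks (SE 0.05, adjusted p = 0.00997, both in edgeR's test), and was not called over weeks 2 to 4 alone (adjusted p = 0.0551). With all 24 head libraries in one fit, the only contig of the group called lower at week 3 was dd_Smed_v4_8340.

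The contig of *zic-2*, dd_Smed_v4_15531, had 56.8 to 70.3 CPM with a median of 61.0 in the 12 control heads and 56.3 to 69.7 CPM with a median of 63.0 in the 12 *nr4A(RNAi)* heads, ranges that overlap, and at week 3 alone the 3 *nr4A(RNAi)* heads lay above the 3 controls. Its log2 fold change over the 4 weeks was -0.03 (SE 0.03, adjusted p = 0.477 in edgeR's test). The homeobox contig NKX2-4, dd_Smed_v4_33456, had 7.11, 8.22 and 8.72 CPM in the controls and 16.9, 13.6 and 12.5 CPM in the *nr4A(RNAi)* heads of week 5, with the groups apart, but 10.6, 12.7 and 9.58 and 9.42, 12.2 and 10.5 CPM at week 2, where they overlapped. NKX2 proteins are homeodomain transcription factors of the nervous system and other tissues in vertebrates. Across the time course NKX2-4 had a mean log2 fold change of 0.27 (SE 0.08, adjusted p = 0.0366 in edgeR's test). It did not pass over weeks 2 to 4 alone (0.09, adjusted p = 0.681) or without any 1 of 12 single libraries (adjusted p of 0.0532 to 0.0803). Without the libraries that stood apart its value was 0.14.

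The 3 enzyme contigs were higher. Phosphogluconate dehydrogenase is an enzyme of the pentose phosphate pathway that yields NADPH, and *PGD*, dd_Smed_v4_8829, had the largest rise over the 4 weeks of all 150 contigs. At week 2 the controls had 28.3, 26.4 and 24.3 CPM and the *nr4A(RNAi)* heads 42.3, 33.2 and 37.5 CPM, and at week 4 they had 16.8, 16.96 and 22.96 CPM and 34.2, 33.7 and 33.5 CPM. All 12 *nr4A(RNAi)* heads, from 31.9 to 45.9 CPM, lay above all 12 controls, from 16.8 to 28.3 CPM. Averaged over weeks the log2 fold change was 0.65 (SE 0.06, adjusted p = 1.44e-06 in edgeR's test), a fold of 1.57.

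Asparagine synthetase makes asparagine from aspartate with glutamine as the nitrogen donor, and 2 contigs carry its name. The one named *ASNS*, dd_Smed_v4_22615, was near 0 in the tails. Its control heads had 5.18, 5.09 and 5.49 CPM at week 5 and the *nr4A(RNAi)* heads 16.03, 12.8 and 9.98 CPM, while at week 2 they had 7.61, 7.21 and 5.57 and 7.40, 9.06 and 7.45 CPM. The groups overlapped at week 2 and were apart at week 5. Its weekly log2 fold changes were 0.22, 0.16, 0.41 and 1.27, with a mean of 0.51 (SE 0.09, adjusted p = 0.000563 in edgeR's test) that did not pass over weeks 2 to 4 alone (0.26, adjusted p = 0.117). The second, *asns*, dd_Smed_v4_25387, had 31.6, 29.2 and 33.1 CPM in the controls and 39.5, 41.3 and 44.5 CPM in the *nr4A(RNAi)* heads of week 5, and its mean was 0.18 (SE 0.04, adjusted p = 0.00932), also not passed over weeks 2 to 4 alone (0.11, adjusted p = 0.304).

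Among the contigs without a name, those that rose most over the 4 weeks were dd_Smed_v4_18131, dd_Smed_v4_10545 and dd_Smed_v4_15455. For dd_Smed_v4_18131 the controls had 21.7, 20.98 and 22.8 CPM and the *nr4A(RNAi)* heads 27.1, 30.1 and 27.5 CPM at week 2, and 21.6, 23.1 and 25.01 and 43.8, 38.6 and 41.7 CPM at week 5. Its groups were apart in every week. The weekly log2 fold changes of dd_Smed_v4_18131 were 0.36, 0.52, 0.71 and 0.80 (mean 0.59, SE 0.05, adjusted p = 4.73e-08 in edgeR's test).

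At week 5 dd_Smed_v4_15455 had 30.01, 33.0 and 32.4 CPM in the controls and 76.1, 54.0 and 47.9 CPM in the *nr4A(RNAi)* heads, with 0 to 0.0821 CPM in all tails. It was above all controls in every week and was highest in 2 heads that stood apart, replicate 2 of week 4 (67.6 CPM) and replicate 1 of week 5 (mean log2 fold change 0.47, SE 0.08, adjusted p = 0.000861 in edgeR's test). The contig dd_Smed_v4_10545, which the study lists as enriched at the posterior pole, had 4.04, 4.61 and 4.24 CPM and 9.91, 10.1 and 6.98 CPM at week 5. At week 2 its groups overlapped, and its mean of 0.48 (SE 0.11, adjusted p = 0.00688) did not pass over weeks 2 to 4 alone (0.30, adjusted p = 0.248). At week 3, dd_Smed_v4_13408 was among the contigs with the smallest adjusted p, with 22.7, 22.2 and 20.6 CPM in the controls and 29.8, 29.2 and 30.8 CPM in the *nr4A(RNAi)* heads (log2 fold change 0.42, adjusted p = 0.000584 in edgeR's test), but it was not called with all 24 head libraries in one fit (adjusted p = 0.284).

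The 7 contigs that fell over the 4 weeks were led by dd_Smed_v4_8340, which ranked 8 in head-minus-tail difference (5.77). At week 2 the controls had 47.9, 47.7 and 53.0 CPM and the *nr4A(RNAi)* heads 31.8, 41.2 and 37.2 CPM. At week 5 they had 53.9, 53.3 and 56.1 CPM and 24.2, 26.8 and 24.6 CPM. All 12 *nr4A(RNAi)* heads (24.2 to 41.2 CPM) lay below all 12 controls (47.7 to 63.2 CPM), which no other contig of the 150 showed. How many of all contigs lay below in this way was not counted. The level in the *nr4A(RNAi)* heads was lowest at week 5. The weekly log2 fold changes of dd_Smed_v4_8340 were -0.44, -0.67, -0.88 and -1.14, with a mean of -0.79 (SE 0.04, adjusted p = 6.52e-10 in edgeR's test), a level 0.579 times that of controls. The difference of week 5 minus the one of week 2 was -0.73 (SE 0.13, adjusted p = 0.0129). The weekly calls at week 4 (adjusted p = 0.0421) and week 5 (adjusted p = 0.0456) were close to the threshold and were lost when most single libraries were left out, with adjusted p of up to 0.376 and 0.684.

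Next came dd_Smed_v4_13487, which had 24.3, 23.6 and 23.04 CPM in the controls and 13.03, 17.4 and 14.01 CPM in the *nr4A(RNAi)* heads of week 5, but 20.5, 19.99 and 21.3 and 16.9, 22.9 and 18.7 CPM at week 2. The groups overlapped at weeks 2 and 3 and were apart later, and the mean log2 fold change was -0.39 (SE 0.06, adjusted p = 0.000158 in edgeR's test). For dd_Smed_v4_16577 the week 5 values were 33.9, 31.5 and 32.8 CPM in controls and 20.2, 20.5 and 29.2 CPM in *nr4A(RNAi)* heads, with the 2 low values in the libraries that stood apart. It fell by 0.36 over the 4 weeks (SE 0.05, adjusted p = 3.4e-05), and by 0.27 without those libraries.

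The contig dd_Smed_v4_12254 was lower in each week by a similar amount, with log2 fold changes of -0.27, -0.26, -0.35 and -0.22 (mean -0.28, SE 0.05, adjusted p = 0.000417 in edgeR's test), 63.6 to 85.6 CPM in the 12 controls and 53.5 to 72.3 CPM in the 12 *nr4A(RNAi)* heads. Over all weeks these ranges overlapped, although within each week they did not. The last 2 of the 7 after ZicA were dd_Smed_v4_2803 (-0.21, SE 0.04, adjusted p = 0.00338) and dd_Smed_v4_9118 (-0.14, SE 0.03, adjusted p = 0.00444). The second of them had the highest CPM of the 150 in control heads, with 469 to 608 CPM in the controls and 453 to 543 CPM in the *nr4A(RNAi)* heads.

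**Figure D5:**
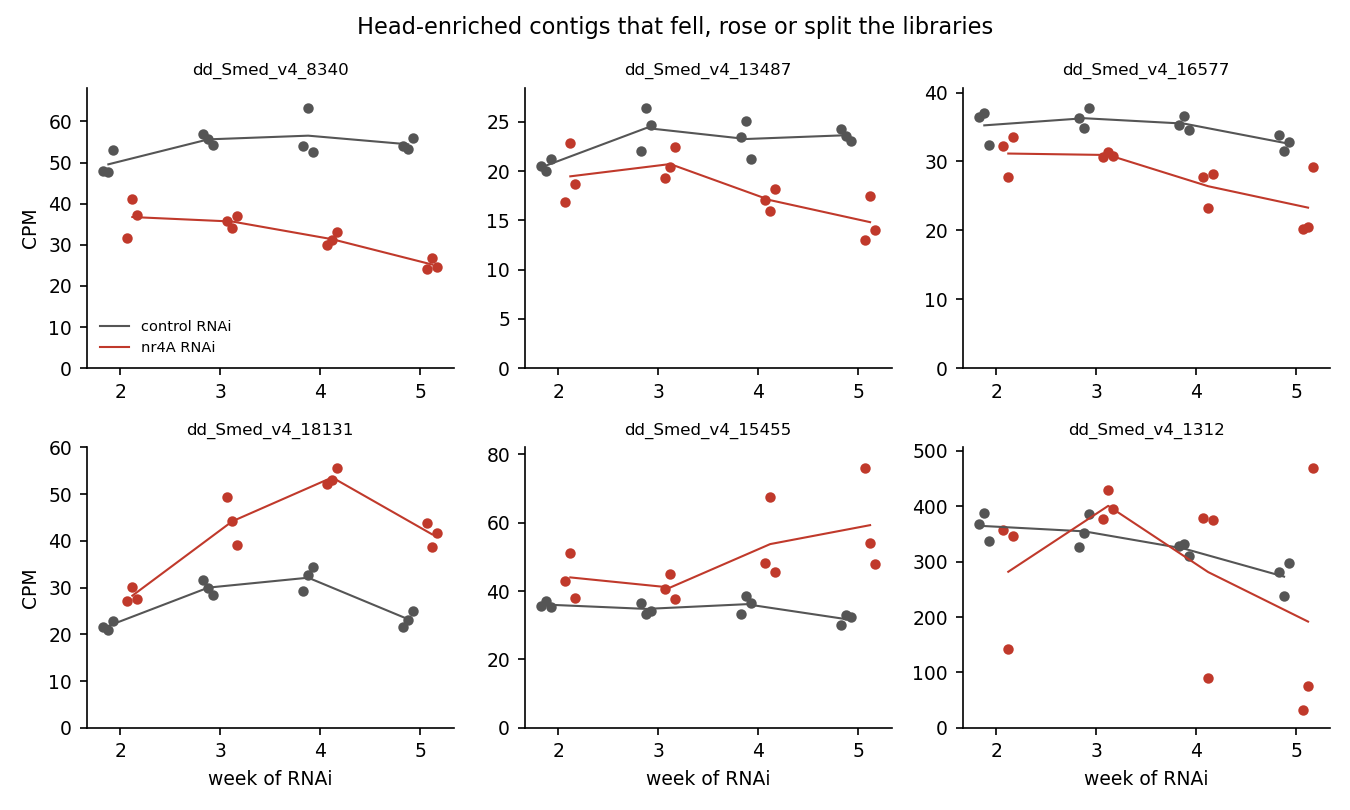
CPM (y axis, from 0) in each head library by week of RNAi for 6 contigs without a name; points are libraries and lines join the means of 3. For dd_Smed_v4_8340 the *nr4A(RNAi)* points run from 24.2 to 41.2, below all controls, and for dd_Smed_v4_1312 4 single *nr4A(RNAi)* heads lie at 31.4 to 142 while the other 8 lie at 346 to 469.

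The contigs that differed most between head and tail rose as well. The 2 with the largest head-minus-tail difference, dd_Smed_v4_15036 (9.32) and dd_Smed_v4_17854 (8.64), had 293 to 381 and 181 to 263 CPM in the control heads and at most 0.205 CPM in any tail. At week 5, dd_Smed_v4_15036 had 340, 329 and 338 CPM in the controls and 537, 415 and 472 CPM in the *nr4A(RNAi)* heads, which were apart, whereas at week 2 the groups overlapped. The mean log2 fold changes were 0.23 (SE 0.05, adjusted p = 0.00956) for dd_Smed_v4_15036 and 0.27 (SE 0.05, adjusted p = 0.00286, both in edgeR's test) for dd_Smed_v4_17854. Of the next 3 contigs, dd_Smed_v4_8476 (0.40, SE 0.11, adjusted p = 0.0197) and dd_Smed_v4_34399 (0.22, SE 0.07, adjusted p = 0.0404) passed and dd_Smed_v4_16476 did not (0.05, SE 0.06, adjusted p = 0.575). Without the libraries that stood apart the value of dd_Smed_v4_16476 was 0.15. Over weeks 2 to 4 alone dd_Smed_v4_15036, dd_Smed_v4_8476 and dd_Smed_v4_34399 did not pass. For dd_Smed_v4_8476, 3 of the 4 heads that stood apart had 171, 209 and 169 CPM, against 69.0 to 109 CPM in the 8 other *nr4A(RNAi)* heads. Without the libraries that stood apart its value was 0.10. The call of dd_Smed_v4_34399 was also lost without any 1 of 11 single libraries (adjusted p of up to 0.0854).

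At the edge of the choice, dd_Smed_v4_18184 had 12.4 to 19.4 CPM in the control heads and 15.6 to 19.95 CPM in the *nr4A(RNAi)* heads, with a mean log2 fold change of 0.24 (SE 0.06, adjusted p = 0.00646 in edgeR's test). The value of dd_Smed_v4_3944 was 0.20 (SE 0.06, adjusted p = 0.0529). Of the other abundant contigs, dd_Smed_v4_2708, listed by the study as enriched in *nr4A*-positive muscle cells, had 380 to 451 CPM in the control heads and 430 to 790 CPM in the *nr4A(RNAi)* heads, and rose by 0.34 (SE 0.07, adjusted p = 0.00419). The 4 heads that stood apart had 525, 673, 790 and 672 CPM of dd_Smed_v4_2708, against 430 to 543 CPM in the other 8. Without the libraries that stood apart its value was 0.15. Over weeks 2 to 4 alone, dd_Smed_v4_18184 (0.15), dd_Smed_v4_2708 (0.22) and dd_Smed_v4_9118 (-0.09) did not pass.

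The 4 heads that stood apart had some head-enriched contigs at other levels than the other *nr4A(RNAi)* heads, more often higher than lower. Against the other 8 *nr4A(RNAi)* heads, 11 contigs (7.33%) were lower by more than 0.5 on the log2 scale and 36 (24%) were higher by more than 0.5, while 12.9% and 7.55% of the contigs at 5 CPM or more did so. Falls were thus rarer in the group than among the contigs at 5 CPM or more, and rises more frequent. The largest fall was in dd_Smed_v4_27650. This contig had 4.49 CPM in replicate 2 of week 2, 2.09 in replicate 2 of week 4, and 0.390 and 1.07 in replicates 1 and 2 of week 5, against 22.4 to 32.8 CPM in the other *nr4A(RNAi)* heads. These 4 heads were low in this contig, and the other 8 lay near the top of the control range of 14.9 to 23.2 CPM or above it.

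The same 4 heads had 142, 89.3, 31.4 and 74.6 CPM of dd_Smed_v4_1312, against 239 to 387 CPM in controls, and the other 8 *nr4A(RNAi)* heads had 346 to 469 CPM. Its mean log2 fold change of -0.27 (SE 0.30, adjusted p = 0.547 in edgeR's test) became 0.22 without the libraries that stood apart. The median of the 150 contigs over the week's controls was 0.35 in the 4 heads and 0.16 in the other 8, and these 4 heads come from weeks 2, 4 and 5. Leaving out the libraries that stood apart lowered the median difference of week 5 minus week 2 from 0.28 to 0.20. Only replicate 3 was then left of the *nr4A(RNAi)* heads of week 5.

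In the tail the head-enriched contigs were low in both RNAi groups. Their sum was 540 to 560 CPM in the controls and 476 to 578 CPM in the *nr4A(RNAi)* tails at week 2, and 489 to 557 and 510 to 576 CPM at week 4, where the groups overlapped. At week 3 it was 462 to 517 and 518 to 549 CPM, and at week 5 it was 479 to 510 and 526 to 552 CPM, with every *nr4A(RNAi)* tail above every control in both weeks. Of the 150, 123 passed the filter on low counts over the 4 weeks, and at most 112 in single weeks, so that the counts here leave out the contigs with almost no tail reads. The median log2 fold change was 0.01, 0.02, 0.04 and 0.15 in weeks 2 to 5. All 3 *nr4A(RNAi)* tails lay above all 3 controls for 8, 11, 9 and 25 contigs of the group, against 3.79%, 9.61%, 5.68% and 22% of all contigs tested, and below them for 4, 9, 4 and 7, against 3.83%, 5.8%, 5.75% and 9.1%. These are 7.21%, 9.82%, 8.04% and 22.3% above and 3.6%, 8.04%, 3.57% and 6.25% below, close to the background in weeks 3 to 5. At week 3, edgeR called 0 of the group (0.0167% higher and 0.128% lower of all, 0.144% in either direction). At an unadjusted p below 0.05, 4 of the group were higher and 5 lower, against 379 and 676 of 17994 contigs tested. At week 5, edgeR's test with Benjamini-Hochberg adjustment called 9 contigs higher and 6 lower of 112, against 4.25% and 5.63% (9.89% in either direction) of all contigs tested. Over the 4 weeks it called 6 higher and 3 lower of 123, against 1.21% and 1.87% (3.08% in either direction), with a median of 0.05. Without *nr4A(RNAi)* replicate 1 of week 2 the count of 9 became 14, while that over all contigs went from 604 to 1519.

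Several contigs had a change in the tail of another size or sign than in the head. The contig dd_Smed_v4_13487, lower in heads, had 1.11, 1.21 and 1.19 CPM in control tails and 2.71, 3.07 and 1.87 CPM in *nr4A(RNAi)* tails at week 5. Over all weeks its *nr4A(RNAi)* tails, from 1.82 to 3.07 CPM, lay above its control tails, from 0.718 to 1.44 CPM (log2 fold change 1.02, SE 0.13, adjusted p = 3.22e-05 in edgeR's test). The contig dd_Smed_v4_25893 had 1.07, 1.39 and 1.28 CPM in control tails and 3.69, 4.09 and 4.11 CPM in *nr4A(RNAi)* tails at week 5 (0.95 over the 4 weeks, SE 0.09, adjusted p = 1.14e-06), and 0.08 (SE 0.04, adjusted p = 0.204) in the head. The difference between the tissues was not tested.

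Lower in both tissues were dd_Smed_v4_2803, dd_Smed_v4_12254 and dd_Smed_v4_9118. At week 4, dd_Smed_v4_2803 had 1.48, 1.29 and 1.60 CPM in control tails and 0.532, 0.341 and 0.216 CPM in *nr4A(RNAi)* tails, which were apart, and over the 4 weeks it had -1.56 (SE 0.23, adjusted p = 0.000198 in edgeR's test). The tail values were -0.58 (SE 0.09, adjusted p = 0.000354) for dd_Smed_v4_12254 and -0.32 (SE 0.06, adjusted p = 0.00112) for dd_Smed_v4_9118. Higher in both tissues was dd_Smed_v4_18131, at 0.85 in the tail (SE 0.20, adjusted p = 0.0223), a call lost without any 1 of 4 libraries (adjusted p of up to 0.0704). Among the named contigs, *sfrp1* had 1.76 to 2.49 CPM in control tails and 0.925 to 2.14 CPM in *nr4A(RNAi)* tails, ranges that overlapped (-0.37, SE 0.11, adjusted p = 0.0888).

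Contigs of other lists show what else moved in the same heads. In the same fit over the 4 weeks, 7.83% of all contigs tested were called higher and 5.22% lower. Of the contigs at 5 CPM or more, 10.05% were called higher and 7.06% lower. Of 23 contigs with names of patterning genes, 6 are among the 150, 4 of which were called higher over the 4 weeks and 1 lower by edgeR's test (median 0.31). Of the other 17, 16 were tested and 5 were higher and 0 lower, with a median of 0.09. The 5 contigs left out by number, counted as a list of their own, had 3 higher and 1 lower. Among them dd_Smed_v4_5102, named nou darake like-5, had 259 to 290 CPM in control heads and 92.3 to 213 CPM in *nr4A(RNAi)* heads. The study also reported *ndl-5* as lowered in these heads. A list of contigs enriched at the anterior pole of uninjured animals, from other libraries of Supplementary file 1, holds 173 contig numbers once repeats are joined, of which 8 are among the 150, 6 higher and 1 lower (median 0.37). Of the other 165, 161 were tested, with 42 higher, 16 lower and a median of 0.06. Of 75 contig numbers listed there as enriched in the anterior pole region of blastemas, 11 are among the 150, with 7 higher and 1 lower (median 0.27), and of the rest 60 were tested, with 22 higher, 5 lower and a median of 0.13. In all, 14 of the 150 contigs are in at least 1 of the study's lists for poles or *nr4A*-positive muscle and 136 are in none.

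No contig of the 150 is in the lists of collagens, contractile proteins, neuronal proteins, ciliary proteins or cell cycle proteins. Collagens, the matrix proteins made by planarian muscle, summed to 10681 to 13825 CPM in control heads and 7232 to 12450 CPM in *nr4A(RNAi)* heads, with 10 of 12 called lower over the 4 weeks and 0 higher. Contractile proteins summed to 12217 to 14829 and 8725 to 12200 CPM, with 6 of 12 lower and 0 higher, and these ranges do not overlap. Neuronal contigs summed to 2083 to 2479 and 2267 to 2780 CPM, with 10 of 32 higher, 0 lower and a median of 0.09. None of the contigs in these 3 lists was at 0 in the control heads. The ciliary list had 2 of 15 higher and 1 lower, and the cell cycle list 1 of 8 higher and 0 lower. All these counts stand against 7.83% higher and 5.22% lower of all contigs tested. These collagen, contractile and neuronal contigs moved in the same libraries in which the head-enriched contigs were higher, and their part in the result was not tested.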

How the data were processed

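Heads and tails of *nr4A* and control RNAi animals were sequenced (TRIzol, TruSeq v2). Per the labels and the study's methods, the authors used CASAVA 1.7.0 and Trimmomatic 0.32, mapped reads with bowtie 1 to dd_Smed_v4 and deposited raw counts per contig for 24 head and 24 tail libraries, without normalization. Column names spell the target nr4A1 for heads and nr4A for tails. The deposited comparison tables hold the authors' own group means, fold changes and p-values and were not used. Rows of a contig number were summed, and 4 head rows that are no contig (12.4% to 18.8% of head counts) were left out.

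Weekly fits took 3 against 3 libraries. The mean of 4 weeks and week 5 minus week 2 came from 1 fit of each tissue's 24 libraries, with 8 groups. Counts were normalized by TMM, filtered with filterByExpr (minimum count 10, minimum total 15) and tested by the quasi-likelihood F test in edgeR 4.0.16 under R 4.3.3, with Benjamini-Hochberg adjustment over all contigs tested and a threshold of 0.05. The fits were tested on simulated counts. An exact permutation test of 3 against 3 libraries cannot give a p below 0.1, so the weekly tests rest on the spread shared between contigs. Alternatives were size factors, no filter, DESeq2 1.42.0, the replicate number as a block, single libraries left out, one fit of 24 head libraries and other choices of contigs, and, chosen after seeing the data, weeks 2 to 4 alone and leaving out 6 libraries that stood apart. Leaving out these 6 kept only replicate 3 of the *nr4A(RNAi)* heads of week 5. The 150 contigs and the lists were chosen with earlier results of these data known.

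The text names contigs with a best BLAST name in Supplementary file 1, the 5 with the largest and 2 with the smallest head-minus-tail difference, the 5 with the highest level in control heads, the 5 most positive and 5 most negative called over 4 weeks with 1 sign in all weeks, those called in a week (the 5 with the smallest adjusted p where over 10), in time, or in the tail (3 each way). The contigs dd_Smed_v4_385 and dd_Smed_v4_27650 were chosen after their values were seen.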

Additional observations from a re-analysis of the deposited data

Results flagged for a closer look

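The contig dd_Smed_v4_8340 stood out because its change differed between time points by a test of the difference itself: the *nr4A*-minus-control difference in the head at week 5, less that at week 2, was -0.73 on the log2 scale (SE 0.13, adjusted p = 0.0129 in edgeR's test). Without control replicate 1 or 2 or *nr4A(RNAi)* replicate 3 of week 2, the value lay between -0.70 and -0.67 and did not pass (adjusted p of 0.0624 to 0.0754).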

How the results depend on the processing

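No median of the 150 contigs changed sign in 196 alternatives, and of 1150 values of single contigs 1083 kept direction and side of the threshold, 57 lost the call, 9 gained it and 1 turned: dd_Smed_v4_1312, from -0.27 to 0.22 without the libraries that stood apart. Counts of contigs called depended on the fit, and the causes were not tested. With all 24 head libraries in one fit the counts were 3 at week 3, 8 at week 4 and 87 at week 5 (48, 218 and 2546 of all contigs). DESeq2 gave 7 at week 4, 51 at week 5 and 12 for week 5 minus week 2 (148, 806 and 280 of all contigs). No filter gave 0 at week 5. With 2 added before the log, the counts were 29 at week 3, 2 for week 5 minus week 2 and 14 in the tail. DESeq2-style size factors gave 2 for week 5 minus week 2. Over the 4 weeks the count of 90 became 25 for weeks 2 to 4 alone and 57 for the first 100 contigs. Without the libraries that stood apart the count was 15 in the tail. With each library left out in turn, the counts ran from 0 to 5 at week 2, 12 to 21 at week 3, 0 to 17 at week 4, 0 to 121 at week 5, 75 to 116 over the 4 weeks, 0 to 67 for week 5 minus week 2, 8 to 14 in the tail and 150 to 150 for *nr4A(RNAi)* heads against tails.

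Leaving aside single libraries left out, the medians of the 150 moved most in the following alternatives. For *nr4A(RNAi)* heads against tails (3.86) the median was 3.78 with DESeq2-style size factors and 3.78 with DESeq2, 4.58 for the first 100 contigs, 3.23 for the first 200 and 3.26 with 2 added before the log. At week 5 it was 0.34 with 2 added. Over the 4 weeks it was 0.13 for weeks 2 to 4 alone and 0.14 without the libraries that stood apart, which gave 0.20 for week 5 minus week 2. With single libraries left out it ran from 0.05 to 0.10 at week 2, 0.08 to 0.13 at week 3, 0.18 to 0.27 at week 4, 0.35 to 0.42 at week 5, 0.18 to 0.23 over the 4 weeks, 0.24 to 0.38 for week 5 minus week 2, 0.03 to 0.08 in the tail and 3.82 to 3.90 for heads against tails.

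Replicate numbers were not taken to pair the libraries: over 24 pairs of equal number, deviations from group means had correlations of -0.39 to 0.32, 11 of them over 0.1, and 13 controls correlated best with their own number. In 1 of the 8 groups of tissue and week, the heads of week 2, every pair was over 0.1 (0.14 to 0.22) and best with its own number. With the replicate number as a block, the counts were 0 at week 2, 21 at week 3, 0 at weeks 4 and 5, 92 over the 4 weeks, 1 for week 5 minus week 2, 9 in the tail and 150 for heads against tails.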
